A study of Rattus norvegicus with 4 samples.

Results

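Two-hormone cells are pituitary cell barcodes in which the messenger RNAs of prolactin (Prl) and of growth hormone (Gh1) each made up a large part of the transcripts. They were selected on these values: Prl at 10% or more and Gh1 at 10% or more of a barcode's unique molecular identifiers (UMIs, the counted RNA molecules), with the corticotropin precursor Pomc under 5%. The rule found 103 barcodes among the 20381 that passed a filter of 1000 UMIs, 500 genes and at most 20% mitochondrial UMIs, out of 32455 in all. The cells came from female Sprague Dawley rats aged 75 days, at random stages of the estrous cycle, whose glands were dispersed with trypsin and EDTA for droplet sequencing with the 10x 3′ v3 kit. Glands from 30 rats were dissected and pooled into 1 anterior and 1 posterior library. Another 30 whole glands were pooled into 1 suspension that was loaded on 2 lanes. No treatment or genotype was compared. The lanes are technical repeats, so the 2 preparations (dissected anterior lobes and whole glands) are the replicates, and p-values measure only the spread between these 2 pools.

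Lactotrophs release prolactin and are held back by dopamine acting on the receptor Drd2, whereas somatotrophs release growth hormone when growth hormone-releasing hormone acts on Ghrhr. Both types belong to the lineage that needs the transcription factor Pou1f1. Cells that hold both hormones have been described as mammosomatotrophs, and a droplet that catches a pair of cells also gives 1 barcode with the RNA of both.

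The 4 libraries held from 61981865 to 72754998 UMIs, and the kept cells had medians of 9741.5 to 10676 UMIs per library. Of the kept barcodes, 70 of 20381 had a sequence that occurred in another library, and 1 of the 103 two-hormone cells was among them. In cells rich in C1q genes, a macrophage mark, Prl took a median of 0.890% to 0.983% of UMIs in the anterior and whole-gland libraries and 0.259% in the posterior library. Gh1 took 0.0629% to 0.199% there. These medians were under the 10% of the rule, but some C1q cells were not: Prl was at 10% or more in 18 of 188 anterior, 8 of 205 lane 1, 10 of 202 lane 2 and 6 of 301 posterior C1q cells, and Gh1 in 7, 3, 5 and 1. Both hormones were at 10% or more in 1 C1q cell, of the posterior library.

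Two-hormone cells were rare in every library. There were 24 among 5666 anterior cells (0.424%, exact 95% binomial interval 0.272% to 0.630%). Lane 1 of the whole glands had 39 of 5714 (0.683%, 0.486% to 0.932%) and lane 2 had 33 of 5065 (0.652%, 0.449% to 0.914%). The posterior library had 7 of 3936 (0.178%, 0.0715% to 0.366%). The intervals cover counting error only. The anterior and whole-gland intervals overlapped, and with 1 anterior library no test between preparations was possible. All together, the two-hormone cells were 1.52% of the 6788 cells with Prl at 10% or more and 2.11% of the 4883 cells with Gh1 at 10% or more. Barcodes were compared with 2 single classes: 6619 Prl-rich cells (Prl at 10% or more, Gh1 under 5%) and 4759 Gh1-rich cells (Gh1 at 10% or more, Prl under 5%).

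The hormone shares chose the cells and are given as a description. Prl ranged from 10.5% to 39.8% of UMIs in anterior two-hormone cells (median 27.3%), from 12.9% to 44.5% in lane 1 (24.2%), from 10.2% to 46.2% in lane 2 (30.4%) and from 10.3% to 33.9% in the posterior library (13.2%). Gh1 ranged from 10.7% to 23.7% (median 15.3%), from 10.1% to 39.0% (16.5%), from 10.1% to 34.8% (13.4%) and from 11.0% to 16.2% (13.9%) in the same order. Prl exceeded Gh1 in 78 of the 103. Just inside the limit, 29 cells with high Prl had Gh1 at 10% to 12.5%, and just outside it 27 had 7.5% to 10%. From the other side, 8 cells with high Gh1 had Prl at 10% to 12.5% and 8 had 7.5% to 10%. Most cells lay far from the limit: 6498 of the cells with high Prl had Gh1 under 0.5%.

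**Figure D1:**
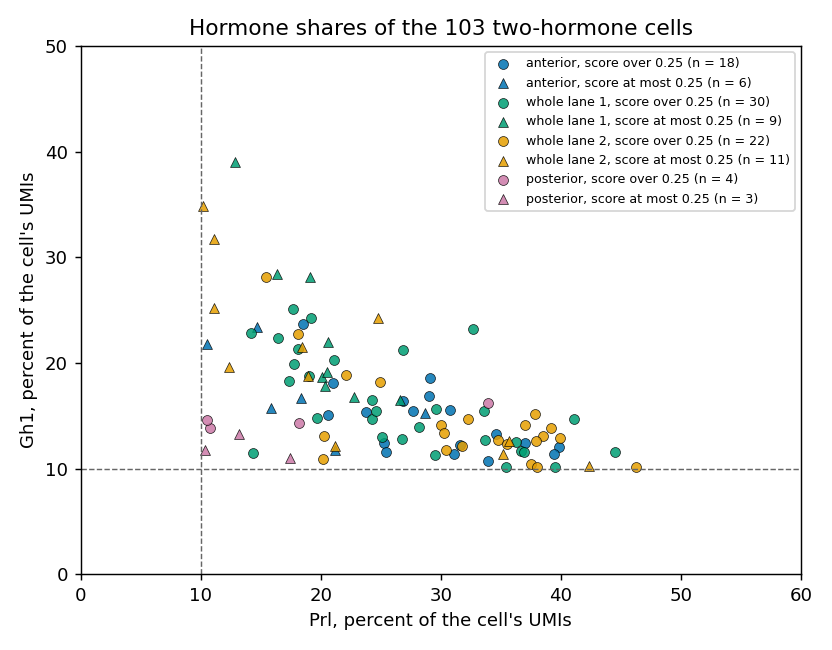
Share of each two-hormone cell's UMIs taken by Prl (x axis, percent) and Gh1 (y axis, percent). Each point is 1 of 103 cells, coloured by library, with circles for a doublet score over 0.25 and triangles for a lower score, and dashed lines at the 10% limits. In 78 cells Prl exceeds Gh1, and the triangles include the cell with the highest Gh1 share, 39.0%.

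The number of two-hormone barcodes can be set against the class sizes. The product of the shares of cells with each hormone at 10% or more (no Pomc limit), times the cells of each library, came to 1768.88 barcodes. The observed 104 were 0.0588 of that (counting interval 0.0480 to 0.0712). For Prl with Pomc the ratio was 0.0423 (0.0251 to 0.0669, 18 barcodes) and for Gh1 with Pomc 0.0598 (0.0360 to 0.0934, 19 barcodes). These ratios come from the hormone shares that chose the cells and are a description, with no test. By library the Prl with Gh1 ratio was 0.0390 in the anterior library, 0.0701 and 0.0647 in the lanes and 0.114 in the posterior library.

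Two-hormone cells held more RNA outside the hormone genes than cells of either single class, except in the posterior library. Anterior two-hormone cells had 4025 to 21018 UMIs outside Prl, Gh1 and Pomc, with a median of 11440. In lane 1 the range was 1114 to 27198 (median 13369) and in lane 2 it was 6396 to 24474 (13384). Medians of Prl-rich cells were 8022, 8049 and 8104 in these libraries, and medians of Gh1-rich cells were 6339, 6192 and 6217. The ratio to Prl-rich cells was thus 1.43, 1.66 and 1.65, and that to Gh1-rich cells 1.80, 2.16 and 2.15. Against the sum of both single-class medians the ratio was 0.797, 0.939 and 0.935. In these 3 libraries 72 of 96 two-hormone cells exceeded the 75th percentile of the single classes, but the ranges overlapped widely. Cells are not replicates, so no test was made, and the rule divides the hormones by all UMIs, so it is not wholly independent of this depth.

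Gene number was compared at equal depth. With each cell thinned to 4000 non-hormone UMIs, two-hormone cells held a median of 1732.5, 1763 and 1742 genes in the anterior library and the 2 lanes. Prl-rich cells held 1626, 1643 and 1644, and Gh1-rich cells 1767.5, 1768 and 1766. In the unthinned cells the medians were 3559.5, 3678 and 3754 genes for two-hormone cells, 2564, 2622.5 and 2622.5 for Prl-rich cells and 2402, 2383 and 2374 for Gh1-rich cells. Thinning left out 2 two-hormone cells of lane 1 and 6 of the posterior library.

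Hormone molecules per cell are values the rule used, so they too are a description, and their relation to the single classes is partly fixed by it. Median Prl counts were 5622.5, 4607 and 7062 UMIs per two-hormone cell, against 7173, 8116 and 8223 in Prl-rich cells. Median Gh1 counts were 3012, 3730 and 3614, against 2975.5, 3001.5 and 3024 in Gh1-rich cells. The median for Gh1 was 1.01 to 1.24 times that of Gh1-rich cells, and the median for Prl 0.568 to 0.859 times that of Prl-rich cells.

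**Figure D2:**
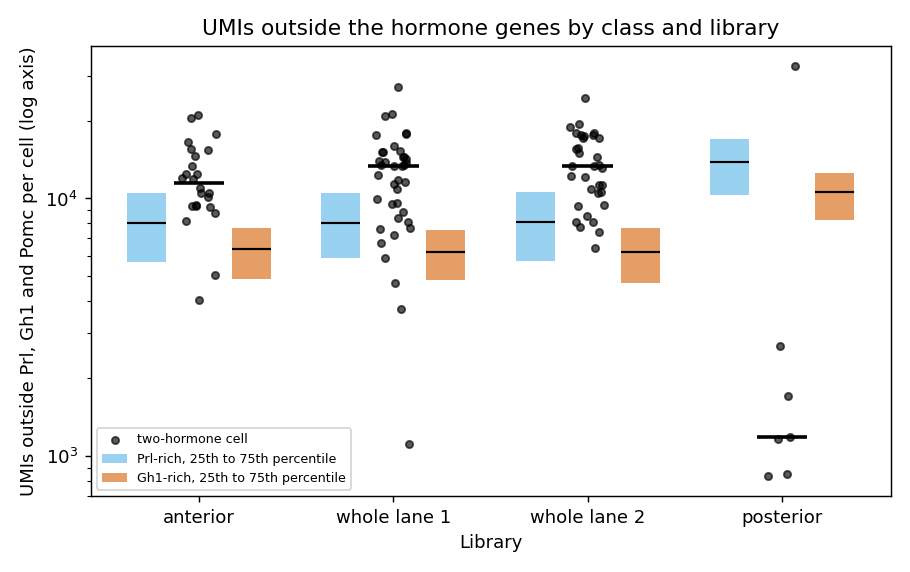
UMIs outside Prl, Gh1 and Pomc per cell (y axis, log scale) by library (x axis). Points are single two-hormone cells with a bar at their median, and coloured boxes span the 25th to 75th percentile of Prl-rich and Gh1-rich cells, with a line at the median. The median of two-hormone cells lies above both boxes' medians in the anterior library and both lanes, and at 1180 UMIs, far under both, in the posterior library.

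The 7 posterior two-hormone cells stood apart. Their median was 1180 non-hormone UMIs, against 13869.5 in posterior Prl-rich and 10628.5 in posterior Gh1-rich cells, or 0.0851 and 0.111 of these. They ranged from 1138 to 65364 UMIs in all, 4 of them under 2000, with 4.52% to 16.4% mitochondrial UMIs. A single cell carried 32570 of their 40985 non-hormone UMIs. Without it the median was 1171.5, or 0.0845 and 0.110 of the single classes. The stricter filter of 2000 UMIs, 1000 genes and 10% mitochondrial UMIs left 1 posterior cell, at 2.21 times the Prl-rich median. The posterior cells were left out of the main tests below and entered only the alternatives that name the posterior library.

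Most two-hormone cells had a high doublet score. This Scrublet score measures likeness to summed profiles of pairs of barcodes from the same library and reads all variable genes, so it is not independent of a rule on Prl and Gh1. It exceeded 0.25 in 74 of 103 two-hormone cells (71.8%, 62.1% to 80.3%), against 208 of 6619 Prl-rich cells (3.14%), 80 of 4759 Gh1-rich cells (1.68%) and 604 of all 20381 (2.96%). By library 18 of 24 anterior cells, 30 of 39 and 22 of 33 lane cells and 4 of 7 posterior cells exceeded it. The automatic threshold of each library, 0.200 to 0.280, gave the same total of 74 but other counts by library: 21, 30, 21 and 2 in the same order.

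The score went with depth. In the anterior library the 18 cells over 0.25 had a median of 12444 non-hormone UMIs and the 6 others 8494. In lane 1 the values were 13785.5 and 8383, and in lane 2 they were 14733 and 10897. The median Prl share was 29.1%, 25.9% and 33.5% over the threshold and 17.1%, 20.3% and 19.0% under it. Left to cells at or under 0.25, the share of two-hormone cells became 0.109% of anterior cells, 0.163% and 0.224% in the lanes and 0.0783% of posterior cells.

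Genes other than the hormones were compared with edgeR's quasi-likelihood test on summed UMIs of each class in the 2 preparations, with Prl, Gh1 and Pomc left out. Levels are counts per 1000000 non-hormone UMIs (CPM). A gene was called where its log2 change was 0.5 or more in size and its p, adjusted by Benjamini and Hochberg's method, was under 0.05. Of 15303 genes tested, 427 were higher (2.79%) and 531 lower (3.47%) in two-hormone than in Prl-rich cells. Against Gh1-rich cells 433 were higher (2.83%) and 299 lower (1.95%). The single classes, whose sums hold many more cells, differed in more genes, with 2980 genes higher (19.5%) and 2537 lower (16.6%) in Prl-rich than in Gh1-rich cells. DESeq2 called 391 of 686 genes higher against Prl-rich cells and 462 of 587 higher against Gh1-rich cells. With the posterior library in place of the anterior one, 617 genes differed from Prl-rich and 523 from Gh1-rich cells. Without the barcodes over the doublet score, 642 and 248 genes differed.

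Genes that mark either single class were present in two-hormone cells, nearly all at levels between the classes. The lists took every gene called between the single classes with a log2 difference of at least 2 and a level of at least 50 CPM in both preparations of the higher class. Of 80 genes of Prl-rich cells, 76 were lower in two-hormone than in Prl-rich cells and 78 were higher than in Gh1-rich cells, with median log2 changes of -0.94 and 2.35. Over all genes tested the medians were -0.09 and -0.07. Of 47 genes of Gh1-rich cells, 47 were higher than in Prl-rich and 41 lower than in Gh1-rich cells, with medians of 2.04 and -0.87. The 2 comparisons share the two-hormone sums, and the lists were chosen on the single-class sums used in both.

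Ghrhr, the receptor that drives growth hormone release, was at 38.0 CPM in anterior two-hormone cells and at 41.7 and 29.3 in the lanes. Prl-rich cells had 0.578, 0.523 and 0.722, and Gh1-rich cells 88.5, 82.7 and 81.7. No two-hormone value overlapped either class. The log2 change was 5.74 ± 0.32 (SE) against Prl-rich cells (edgeR adjusted p = 2.12e-09) and -1.22 ± 0.17 against Gh1-rich cells (adjusted p = 1.6e-04), and 35 of 103 cells had a UMI. Ramp1, a receptor activity-modifying protein that partners the calcitonin receptor-like receptor, was at 58.8, 54.2 and 47.3, against 2.31, 2.33 and 2.89 in Prl-rich and 90.7, 112 and 114 in Gh1-rich cells. Wfdc1, a secreted protein with a whey acidic protein domain, was at 93.3, 62.5 and 60.8, against 4.43, 2.73 and 3.02 in Prl-rich cells and 200.01 to 203.6 in Gh1-rich cells. Arhgap36, an antagonist of protein kinase A, was at 250.0 to 275, against 18.6 to 22.1 in Prl-rich and 463 to 497 in Gh1-rich cells. For these 3 genes too the two-hormone values lay apart from both classes in every library.

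Sytl4 (granuphilin, a granule docking protein) was at 135, 177 and 106 CPM in two-hormone cells. It was at 13.5, 16.1 and 13.8 in Prl-rich and at 244, 292 and 287 in Gh1-rich cells. The log2 changes were 3.09 ± 0.13 (edgeR adjusted p = 3.23e-11) and -0.97 ± 0.10 (adjusted p = 4.16e-06). The other leading genes of Gh1-rich cells lay between the classes as well: Pgm5 at 25.01 to 33.8, Tent5c at 24.2 to 47.9 and Ffar4, a fatty acid receptor, at 20.3 to 38.0. Among genes at 50 CPM or more in two-hormone cells of both preparations, those with the largest excess over Prl-rich cells further included the potassium channel Kcnk2 (log2 change 2.98), the sulfonylurea receptor Abcc8 (2.23), the adhesion molecule Alcam (2.32) and the arginine synthesis enzyme Ass1 (2.65). Ass1 was not called against Gh1-rich cells (log2 change -0.48, edgeR adjusted p = 0.0426).

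Drd2, the dopamine receptor that restrains prolactin release, was at 44.9 CPM in anterior two-hormone cells and at 31.3 and 56.3 in the lanes. Prl-rich cells had 70.6, 65.8 and 65.3, and Gh1-rich cells 0.758, 0.726 and 0.687. The two-hormone values lay under all Prl-rich and above all Gh1-rich values. The log2 change was -0.78 ± 0.16 (edgeR adjusted p = 0.00504) and 5.90 ± 0.31 (adjusted p = 2.85e-10). The call against Prl-rich cells was lost with DESeq2 (log2 change -0.77), without lane 1 (-0.56), without the anterior library (-0.67) and without the barcodes over the doublet score (-0.37). Agtr1b, an angiotensin II receptor, was at 69.1, 110 and 90.1, against 142, 171 and 187 and 1.41, 1.76 and 1.95. Irx6, a homeobox factor, was at 76.0, 87.5 and 65.3, against 136, 128 and 122 and 0.541, 1.14 and 1.03.

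Klk1, a tissue kallikrein, was at 574, 606 and 761 CPM, against 1239, 1197 and 1227 in Prl-rich and 13.3, 10.6 and 11.2 in Gh1-rich cells. Kallikreins are a family of near-identical genes, and LOC100910996, which was also among the leading genes, was at 118, 119 and 124. How reads were shared among such copies is not given in the sources used here. Six6, a homeobox factor, was at 805, 792 and 773, with log2 changes of -0.83 ± 0.07 and 2.77 ± 0.08. Rprm (72.6 to 104), Sostdc1 (42.8 to 79.5) and Krt25 (31.1 to 68.8) also lay between the classes.

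Cartpt, the precursor of a neuropeptide, was carried by few cells. It was at 79.5, 1105 and 4.50 CPM in two-hormone cells, against 988, 742 and 801 in Prl-rich cells. A single lane 1 cell held 492 of the 555 UMIs, and 9 of 103 cells had any. The log2 change was -1.26 against Prl-rich cells (edgeR adjusted p = 0.0121) and 5.87 against Gh1-rich cells. Without lane 1 the changes were -4.85 and 2.25, both still called, so the sizes moved with that lane. Gh1-rich cells had 9.52, 6.12 and 5.15, so the lane 2 value of 4.50 was under theirs. The first call was lost with DESeq2, where the change was larger (-1.78), and the second without the barcodes over the doublet score (1.17).

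**Figure D3:**
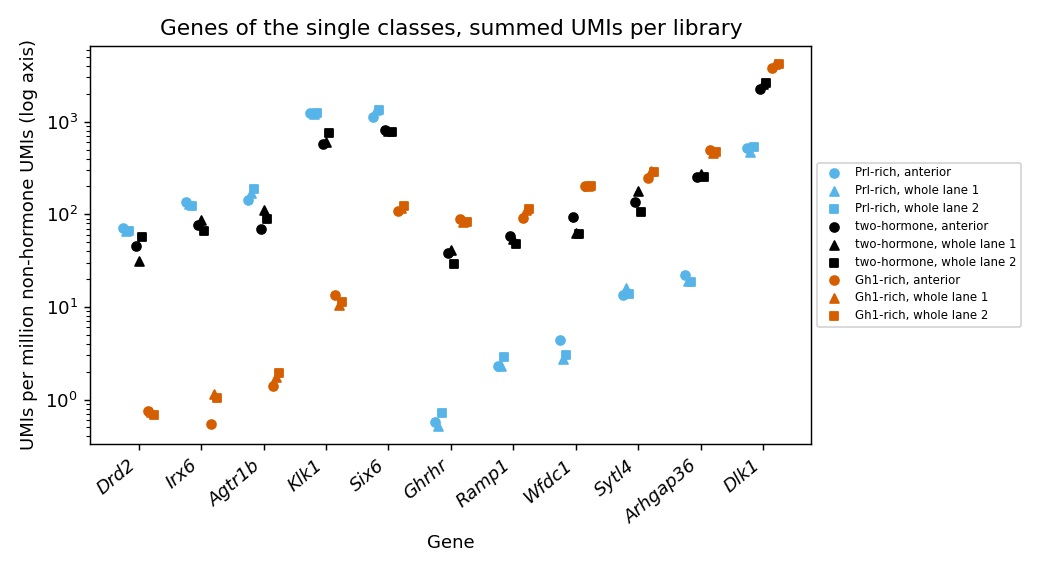
Level of 11 genes (x axis) as CPM of non-hormone UMIs (y axis, log scale) in two-hormone (black), Prl-rich (blue) and Gh1-rich (orange) cells. Each point is the sum over the cells of a class in the anterior library (circle) or in whole-gland lane 1 (triangle) or 2 (square). The black points lie between the blue and orange points for each gene, as for Ghrhr at 29.3 to 41.7.

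The lactotroph-associated list had 13 of 14 genes tested. Against Prl-rich cells 1 was higher and 5 lower (median log2 change -0.39), and against Gh1-rich cells 7 were higher and none lower (median 1.99). Over all genes tested 2.79% were higher and 3.47% lower than in Prl-rich cells, and 2.83% higher and 1.95% lower than in Gh1-rich cells, which is the background for this and the following lists. Gal, the peptide galanin, was at 463, 594 and 856 CPM, against 1067, 2160 and 2253 in Prl-rich and 115, 130 and 95.7 in Gh1-rich cells. Trhr, the receptor for thyrotropin-releasing hormone, was at 20.7, 12.5 and 4.50 and was higher than in Gh1-rich cells (log2 change 5.02, edgeR adjusted p = 2.11e-05). The nuclear receptor Nr4a2 was also higher than in Gh1-rich cells (0.86, adjusted p = 0.0138). The preparations differed in direction: it was at 72.6 in the anterior library, under the Gh1-rich 91.9, and at 198 and 254 in the lanes, above the Gh1-rich 109 and 98.1. The prolactin receptor Prlr was the 1 gene called higher than in Prl-rich cells (6.91, 22.9 and 11.3, against 0.722, 1.51 and 1.44). Prlr was also higher in Gh1-rich than in Prl-rich cells. Esr1, Pgr, Angpt1, Vip and Calb1 passed no test in either comparison. Edn1 had no UMI in two-hormone cells and was not tested.

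The somatotroph-associated list had 11 of 12 genes tested. Against Prl-rich cells 5 were higher and none lower (median log2 change 0.23), and against Gh1-rich cells none were higher and 4 lower (median -1.04). Dlk1, a membrane protein of the Notch ligand family, was at 2580 and 2613 in the lanes and had log2 changes of 2.09 ± 0.07 and -0.73 ± 0.07. Pappa2, a protease of growth factor binding proteins, was at 10.4, 22.9 and 24.8, against 42.2, 44.5 and 49.2 in Gh1-rich cells and under 1 in Prl-rich cells. The somatostatin receptor Sstr5 and the retinoid receptor Rxrg were at 0 in anterior two-hormone cells and at 4.17 to 11.3 and 6.25 to 6.76 in the lanes. Both were called higher than in Prl-rich cells (edgeR adjusted p = 6.18e-04 and 0.0429), with two-hormone UMIs from the whole-gland preparation alone. The ghrelin receptor Ghsr was at 0, 2.08 and 2.25, against 8.33, 10.6 and 9.96 in Gh1-rich cells (log2 change -2.59, adjusted p = 0.0496). Neurod4, Sstr3, Foxo1, Ghr and Cyp11a1 were not called, and Gpr101 had no UMI in two-hormone cells.

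Among 26 pituitary transcription factors tested, none were higher and 9 lower than in Prl-rich cells, and 5 were higher and none lower than in Gh1-rich cells, against 3.47% of all genes lower and 2.83% higher in these comparisons. Pou1f1 was detected in 98 of the 103 cells, at 622, 746 and 734 CPM, with log2 changes of -0.32 and 0.41 that did not reach the size for a call. Nr4a1 (-0.61 and 0.55) was called both times. Lhx3, a homeobox factor of early gland development, had changes of -0.95 and 3.06, and Six6 and Nr4a2, given above, were also among the 5. Of 23 granule and secretion genes, 2 were higher and 5 lower than in Prl-rich cells, and 4 higher and 3 lower than in Gh1-rich cells. Chgb (chromogranin B) was at 6273, 6471 and 7216, between 10047 to 10400.0 in Prl-rich and 1709 to 1804 in Gh1-rich cells. Scg2 was at 2357, 2991 and 3117, with log2 changes of -0.98 and 1.39, and Resp18 (0.29 and -0.38) and Scg5 (-0.16 and 0.00) were not called. Scg3 (-0.89 and 1.32) and Vgf (-0.88 and 2.51), both granule proteins, were called both times. Rab3b, a vesicle GTPase, was higher than in Prl-rich (0.97) and lower than in Gh1-rich cells (-0.53), Rab3a was higher than in Prl-rich cells (0.54) and Chga lower than in Gh1-rich cells (-0.68). Nnat was lower than in both (-2.25 and -1.91).

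Of 26 genes for hormone synthesis in the endoplasmic reticulum, none were higher and 8 lower than in Prl-rich cells, and 1 was higher and none lower than in Gh1-rich cells. The 1 gene is near the 2.83% of all genes higher than in Gh1-rich cells, while 3.47% of all genes were lower than in Prl-rich cells. Ssr4, a subunit of the translocon-associated complex, had log2 changes of -0.75 and 0.49, and the chaperone Calr -0.53 and 0.07. The signal peptidase subunit Sec11c (-0.72) and the chaperone cofactor Sdf2l1 (-1.26) were also lower than in Prl-rich cells, and Dnajc3 was the gene higher than in Gh1-rich cells (0.66). Hspa5 (-0.29 and -0.13) and Sec61b (-0.12 and -0.05) were not called. Of 15 hypothalamic signal receptors tested, 3 were higher and 3 lower than in Prl-rich cells, and 3 higher and 2 lower than in Gh1-rich cells. The dopamine receptor Drd4 was at 13.8, 12.5 and 22.5, with log2 changes of -1.33 and 3.82, while Gabbr1 was not called. Beyond genes given above, the somatostatin receptor Sstr2 was higher (3.08) and the gonadotropin-releasing hormone receptor Gnrhr lower (-3.50) than in Prl-rich cells.

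Of 15 immediate early genes, 1 was higher and 5 lower than in Prl-rich cells, and 2 were higher and 2 lower than in Gh1-rich cells. Fos, Junb and Btg2, the most abundant, were not called, and Egr1 (-0.50, edgeR adjusted p = 0.0332) and Jun (-0.58) were lower than in Gh1-rich cells. Dusp1 had changes of -0.62 and 0.72, and Zfp36 was the gene higher than in Prl-rich cells (0.50). Ier2, Ier3, Klf2 and Nr4a1 were the other genes lower than in Prl-rich cells. Of 18 cell cycle genes, Top2a alone was called, lower than in Prl-rich cells, with 0 UMIs in two-hormone cells of the anterior library and the lanes. With 3.47% of all genes called lower there, 1 of 18 is near the background. Of 16 steroid, thyroid and growth factor receptors, 2 were higher and 2 lower than in Prl-rich cells, and 2 were higher than in Gh1-rich cells. Prlr and Rxrg, given above, were the higher genes against Prl-rich cells, and the retinoid receptor Rara was lower (-1.21). Rxra was higher than in Gh1-rich cells (1.21). Thra, Thrb and Igf1r were not called. Of 17 ion channels, 2 were higher than in Prl-rich cells, and against Gh1-rich cells 1 was higher and 2 lower. The calcium channel Cacna1g was higher than in Prl-rich cells (log2 change 1.45), as was Kcnk2. Against Gh1-rich cells Kcnc2 was higher (3.74) and Kcnk2 (-0.83) and Kcnk3 (-1.66) lower, and Cacna1a and Cacna1d were not called. Genes of these lists outside the naming rule were chosen after their values were seen. Where the posterior library replaced the anterior one, 1 cell held 32570 of the 40985 non-hormone UMIs of its two-hormone sum. Leaving out the anterior library, with the posterior one in its place, ended the calls against Gh1-rich cells of Egr1 (-0.10), Jun (-0.15), Dusp1 (0.58), Dnajc3 (0.60), Pappa2 (-0.97), Rxra (0.78), Rab3b (-0.44), Ghsr (-2.20) and Kcnk3 (-2.02), and those against Prl-rich cells of Chgb (-1.06), Calr (-0.79), Ier2 (-0.45) and Zfp36 (0.37). Leaving out lane 1 ended those of Drd4 (-1.07), Rxrg (2.67), Rab3b (0.41), Rab3a (0.52), Calr (-0.48), Dnajc3 (-0.48), Zfp36 (0.42) and Top2a against Prl-rich cells and of Jun (-0.35), Pappa2 (-1.31), Ffar4 (-0.92), Ghsr (-2.79) and Kcnk3 (-2.48) against Gh1-rich cells. Leaving out lane 2 ended those of Sstr5 (5.14), Rxrg (3.13), Rab3a (0.47), Rara (-0.86) and Zfp36 (0.48) against Prl-rich cells and of Nr4a1 (0.37), Rxra (1.27), Rab3b (-0.27), Kcnc2 (2.94), Ghsr (-2.89) and Kcnk3 (-1.01) against Gh1-rich cells. The direction of each named call was kept in these 3 alternatives, but 39 of 137 calls of named genes were lost in at least 1. Without the barcodes over the doublet score 47 of the 137 were lost. In two-hormone cells up to the 75th percentile of depth, where fewer cells entered the sums, 82 were lost and 3 changed sign without being called.

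For each gene of the single-class lists a position was taken: 0 at the Gh1-rich and 1 at the Prl-rich level of the same preparation, on the linear CPM scale. By arithmetic, any mix of the 2 class averages would give all genes 1 common position, and no cause was tested with it. The 80 genes of Prl-rich cells had a median position of 0.524 in anterior two-hormone cells and 0.526 in whole glands (0.528 and 0.509 in the lanes). The 47 genes of Gh1-rich cells had 0.496 and 0.535 (0.495 and 0.562 in the lanes). Both lists thus sat near the midpoint in both preparations. The middle 50% of genes spanned 0.435 to 0.672 and 0.431 to 0.601 for the first list, and 0.389 to 0.594 and 0.452 to 0.577 for the second. Of the 80 genes, 78 lay between the classes in the anterior library and 80 in whole glands, and of the 47 genes, 47 and 46 did.

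Cells at or under the doublet score of 0.25 had median Prl shares of 17.1% (anterior), 20.3% and 19.0% (lanes), against 29.1%, 25.9% and 33.5% over it. In these low-score cells the 2 lists had different median positions. Genes of Prl-rich cells had a median position of 0.329 in 6 anterior cells and 0.347 in 20 whole-gland cells. Genes of Gh1-rich cells had 0.505 and 0.437 in the same cells. The first list was thus nearer the Gh1-rich level than in all two-hormone cells, while the second changed less. No test of this difference was made, and the doublet score is not independent of the list genes, which were not left out of it. In the posterior library the medians were 0.385 and 0.773, and without its cell of most UMIs they were -0.029 and 1.07, so the posterior positions rest on 1 cell.

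**Figure D4:**
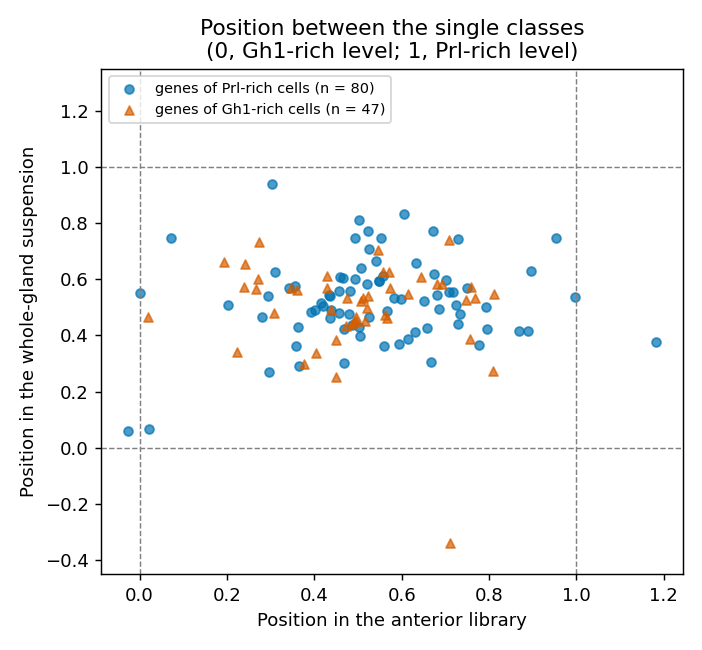
Position of each single-class gene in two-hormone cells between the Gh1-rich level (0) and the Prl-rich level (1), in the anterior library (x axis) and in the whole-gland suspension (y axis), with no units. Circles are 80 genes of Prl-rich cells and triangles 47 genes of Gh1-rich cells, and dashed lines mark 0 and 1. Most genes lie between the lines near 0.5 in both preparations.

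Single cells were also counted for both lists, at 4000 non-hormone UMIs each. The 80 genes of Prl-rich cells summed to a median of 59.5, 66 and 79 UMIs in two-hormone cells of the anterior library and the 2 lanes. Prl-rich cells had 110, 123 and 122.5 and Gh1-rich cells 17, 18 and 18. The 47 genes of Gh1-rich cells summed to 24, 25 and 25, against 4, 4 and 4 in Prl-rich and 41, 43 and 44 in Gh1-rich cells. The medians of two-hormone cells thus lay between those of the single classes for both lists. Abundant genes weigh most in such sums. In the anterior library Chgb was at 10047 and Scg2 at 4149 CPM in Prl-rich cells, and Dlk1 at 3805 in Gh1-rich cells.

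Cells that reached the limits of both lists were few. Each list's limit was the 5th percentile of its own class in the same library. In the anterior library and the 2 lanes it was 63, 69 and 69 UMIs for the first list and 26, 26 and 27 for the second. A level midway between the class medians fell under the limit of the second list. Missing a limit thus does not show that the genes of a class were absent. Of 94 two-hormone cells thinned in these 3 libraries, 13 (13.8%) reached both limits, against 7 of 5414 Prl-rich (0.129%) and 5 of 3620 Gh1-rich cells (0.138%). Another 33 reached the Prl-rich limit alone, 27 the Gh1-rich limit alone and 21 neither. The lists and limits came from the single-class cells themselves, so the low shares of those classes were largely set in advance. All 13 cells that reached both limits were among the 69 with a doublet score over 0.25, and 0 were among the 25 others. The score reads variable genes without leaving out the list genes, so this split is not independent of the lists. The median sums were 76 and 24 UMIs in those 69 cells and 50 and 28 in the 25 others.

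**Figure D5:**
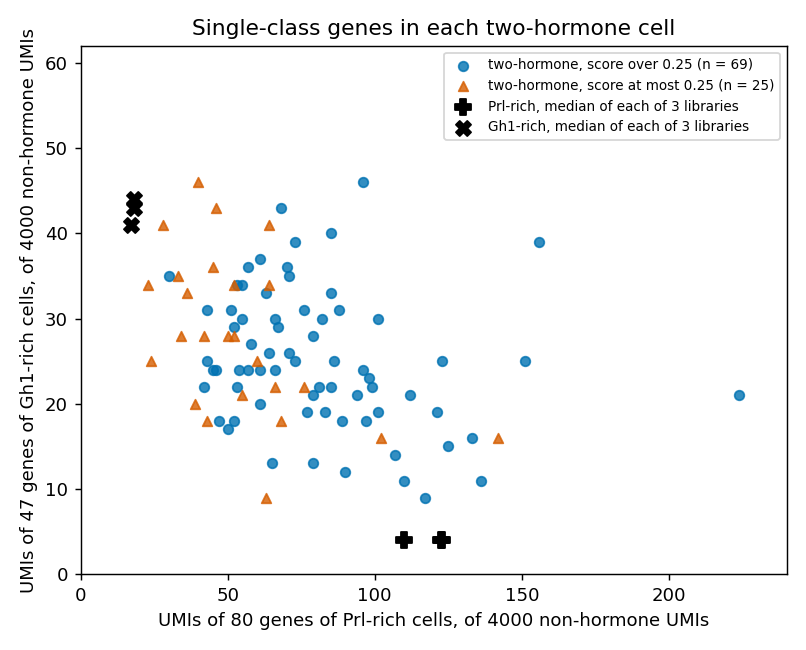
UMIs of the 80 genes of Prl-rich cells (x axis) against those of the 47 genes of Gh1-rich cells (y axis), of 4000 non-hormone UMIs per cell. Circles are two-hormone cells with a doublet score over 0.25 (69) and triangles those with a lower score (25), and black symbols are the medians of the single classes in 3 libraries. The medians of two-hormone cells lie between the 2 sets of black symbols, while single cells spread past them, up to 224 UMIs of the first list and 46 of the second.

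Over the 3 libraries together the balance of the hormones went with that of the listed genes, but weakly in the anterior library. The rule limits this balance, and the lists were chosen between classes defined by the same hormones. The relation is thus a description that is not independent of the rule. In cells with under 40% Prl of their Prl and Gh1 UMIs (10 cells), Prl-list genes made up a median of 62.5% of the UMIs of both lists. Among the 32 cells with 70% or more Prl they made up 81.4%. Over the 94 cells Pearson's r was 0.617 and Spearman's rho 0.591, as a description across cells whose values share depth and libraries. Within libraries r was 0.257 (anterior, 24 cells), 0.592 (lane 1, 37 cells) and 0.794 (lane 2, 33 cells).

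No gene was called higher in two-hormone cells than in both single classes: 0 of 15303 (0%) by edgeR and 0 by DESeq2, with 63 higher in both at an unadjusted p under 0.05. With the posterior library in place of the anterior one 3 genes passed: AABR07001910.1, the stress gene Ddit4 and Ccnb1. Without lane 1 only Snx13 passed, and without lane 2 3 genes did, among them Mir30c2 and RF00100. Without the barcodes over the doublet score, 21 genes passed. Most UMIs of 19 of these lay in 1 lane 2 cell, and of the other 2, Sat1 and Phlda1, in 1 lane 1 cell. The genes named in these sentences were chosen after their values were seen. Without these 2 cells, as an alternative added after seeing the data, 0 passed by edgeR.

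The lane 2 cell held genes of mitosis. It held all 23 UMIs of Ccnb1 (cyclin B1), all 36 of Cks2, all 30 of Ube2c and 19 of 20 of Cdc20 found in the 26 low-score cells outside the posterior library. It had 22135 UMIs, 34.8% Gh1, 10.2% Prl and a doublet score of 0.072, with 28 UMIs of the Prl-rich and 41 of the Gh1-rich list. The lane 1 cell had 20379 UMIs, 22.8% Prl, 16.8% Gh1 and a score of 0.051, and held 124 of 158 UMIs of Sat1, which encodes a polyamine acetyltransferase, and 51 of 52 of Phlda1.

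Lower than both single classes were 55 of 15303 genes (0.359%) by edgeR and 29 by DESeq2, with 301 at an unadjusted p under 0.05. The count was 14 with the posterior library as a further preparation, 33 with it in place of the anterior library and 27 without the barcodes over the doublet score. Of the 55 genes, 11 were fixed markers of other cell types, such as the macrophage genes C1qa, C1qb, C1qc, Cd74, Tyrobp and Aif1. C1qa had no UMI in the 96 cells of these libraries, which puts it at least 5.50-fold lower than in Prl-rich and at least 4.52-fold lower than in Gh1-rich cells of whole glands (floor of 3 counts per preparation). Apoe, a lipid carrier, was at 44.9, 14.6 and 42.8 CPM in two-hormone cells, against 693, 470 and 461 in Prl-rich and 305, 571 and 348 in Gh1-rich cells. Cga, the subunit shared by gonadotropins and thyrotropin, was at 221, 200.1 and 153, with log2 changes of -3.28 and -1.77. Lhb (-3.91 and -1.93), the inhibitor Timp3 (-4.15 and -2.62), Igfbp5 (-3.91 and -2.91) and Zfp36l1 (-5.29 and -4.14) were also lower than both. With the posterior library in place of the anterior one, calls against Gh1-rich cells were lost for Apoe (-0.32), Cga (-0.98), Lhb (-1.03), Timp3 (-0.96) and Zfp36l1 (-0.70), and that against Prl-rich cells for Apoe (-0.61). Apoe was at 2489 CPM in the posterior two-hormone cells. All 7 of these cells had Apoe UMIs, and 1 cell held 61 of the 102. Of their 40985 non-hormone UMIs, 32570 lay in 1 cell, and whether it was the same cell is not given here.

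Such genes were unevenly spread among the single classes. A median of 68.1% of their UMIs in Prl-rich cells and 73.1% in Gh1-rich cells lay in the richest 1% of cells. For 7750 genes at 10 to 1000 CPM in whole-gland Prl-rich cells the median in Prl-rich cells was 10.9%. This reference was not matched for level, and none was taken in Gh1-rich cells. The sums of 24 and 72 two-hormone cells hold few cells of such a tail, and its part in the lower levels was not tested.

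Most marker lists of other cell types summed to less in two-hormone cells than in Prl-rich cells. Gonadotroph genes summed to 18.8 to 34.6 CPM over the anterior library and the 2 lanes, against 253 to 482 in Prl-rich and 36.4 to 218 in Gh1-rich cells, with Nr5a1 at 0. The thyrotroph gene Tshb was at 15.8 to 29.2, against 46.4 to 193 and 32.4 to 395. Folliculostellate genes summed to 36.0 to 45.9, against 201 to 259 and 115 to 170. Macrophage genes summed to 6.91 to 9.01, against 107 to 197 and 53.5 to 173, with C1qa and C1qc at 0. Fibroblast genes, at 58.8 to 69.8, lay at the Gh1-rich level of 54.0 to 67.2, with Col1a1 and Lum at 0. That sum was nearly all Dcn, with 17 of 17 UMIs in the anterior library and 32 of 33 and 31 of 31 in the lanes. Dividing-cell genes ranged from 4.17 to 94.6, the latter in the lane of the mitotic cell. Pituicyte, endothelial, Schwann, red blood cell and T and NK cell genes each summed to 41.5 CPM at most. Corticotroph or melanotroph genes other than Pomc were at 0 in the anterior library and lane 2 but at 16.7 CPM (8 UMIs) in lane 1, above the 2.09 of Prl-rich and 1.76 of Gh1-rich cells. Of these 8 UMIs 4 were of Crhr1, all in 1 cell. In the 7 posterior cells folliculostellate genes had 20 UMIs (488 CPM), macrophage genes 6 (146 CPM) and pituicyte genes 3 (73.2 CPM). The part of other cell types in the results was not tested.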

How the data were processed

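Cells of 4 droplet libraries were counted. The deposited matrix holds counts (whole UMIs per gene and barcode), made with Cell Ranger 3.1 per the submitters' processing notes. The genome build, annotation and any equalization of depth are not given in the sources used here. Another deposited file, the barcode list, gives each barcode's library by its suffix, per the labels. Doublets were scored per library with Scrublet (scanpy 1.11.5, expected rate 0.06, threshold 0.25) and kept in the main values. UMIs were summed per class and preparation, 6 sums in all, and fitted with edgeR 4.0.16 (R 4.3.3, TMM, filterByExpr, terms for class and preparation, 2 residual degrees of freedom), with DESeq2 1.42.0 as an alternative. An SE is the size of a log2 change divided by the square root of F. The steps were tested on simulated data. Members and gene lists were chosen with earlier results of these data known. Named genes were the lactotroph and somatotroph lists, up to 4 of highest level from other lists, the 8 largest called changes in each direction with 50 CPM or more, the 8 leading genes of each single class and 8 genes outside both classes. Intervals are exact binomial or Poisson and cover counting error only. Thinning used 4000 UMIs. Alternatives changed the hormone limits, the cell filter, doublets, normalization, the low-count filter, the block and the libraries. Results of some genes are not reported here.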

Additional observations from a re-analysis of the deposited data

Results flagged for a closer look

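In the posterior library the median of non-hormone UMIs in two-hormone cells was 0.0851 of the Prl-rich and 0.111 of the Gh1-rich median, whereas the ratio was over 1 in the anterior library and both lanes. The opposite direction drew attention to these 2 values, which rest on 7 posterior cells. The difference between libraries was not tested.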

How the results depend on the processing

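Shares of two-hormone cells moved most with the hormone limits. With both at 5% they were 0.777% (anterior), 0.980% and 0.987% (lanes) and 1.19% (posterior), and with both at 20% 0%, 0.070%, 0.0197% and 0%, so genes could not be fitted at 20%. Without barcodes over the doublet score they were 0.109%, 0.163% and 0.224%, and the stricter filter gave 0.0498% in the posterior library. The ratios of barcodes with 2 hormones became 0.105, 0.122 and 0.103 at 5% and 0.00347, 0.0114 and 0 at 20%, for Prl with Gh1, Prl with Pomc and Gh1 with Pomc. Mean depth ratios fell to 1.16 (Prl-rich) and 1.49 (Gh1-rich) without high-score barcodes, and the stricter filter turned the posterior ratios to 2.21 and 2.91, with 1 cell left. In the counts that follow, leaving out the anterior library put the posterior library in its place. Calls against Prl-rich cells numbered 617 to 902 with a library left out, 326 in two-hormone cells up to the 75th percentile of depth and 576 at a log2 change of 1. Calls against Gh1-rich cells numbered 523 to 653 with a library left out, 248 without high-score barcodes, 86 by depth and 477 at a log2 change of 1. The single classes differed in 3633 genes by DESeq2 and 3146 at a log2 change of 1. Genes higher than both classes numbered 1 to 3 with a library left out, 1 with the posterior library as a further preparation, 1 with the stricter filter and 21 without high-score barcodes. Genes lower than both numbered 33 to 60 with a library left out, 29 by DESeq2, 102 without the low-count filter, 28 with no replicate block, 14 with the posterior library, 27 without high-score barcodes and 16 by depth. Leaving out 2 further cells, chosen after seeing the data, gave 556, 183 and 25 calls (against Prl-rich, against Gh1-rich, lower than both). Positions of the Prl-rich list (main mean 0.525) were 0.338 without high-score barcodes, 0.336 without 2 further cells, 0.388 by depth, 0.523 with single classes under 2%, 0.537 with the stricter filter and 0.502 with genes at a log2 difference of 1. Positions of the Gh1-rich list (0.515) were 0.471, 0.465 and 0.480 for the first 3 of these. Posterior positions were -0.045, -0.045, -0.029, 0.386, 0.428 and 0.407 for the Prl-rich list, and 1.11, 1.11, 1.07 and, with genes at a log2 difference of 1, 0.724 for the Gh1-rich list. Without the cell of most UMIs, also chosen after seeing the data, they were -0.029 and 1.07. Among called genes 3 changed sign by depth, and none of the 3 was called there. These were Cartpt (-0.42, Gh1-rich), Sstr5 (-2.39, Prl-rich) and Trhr (-5.22, Gh1-rich), with edgeR adjusted p = 0.904, 0.959 and 0.886. The causes were not tested.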
